A study of Mus musculus with 18 samples.

Results

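Primary mouse hepatocytes that received no stimulus changed their transcriptome over a day in culture. The data were 5 of the 18 arrays of a series on IL-6 and HGF, namely the control arrays at 0, 4, 8, 12 and 24 h. For each of 18193 genes, the slope of the log2 value on log2(hours + 1) was fitted over these 5 arrays and again over the 4 arrays from 0 to 12 h. A fitted change is this slope multiplied by the 4.64 doublings of (hours + 1) between 0 and 24 h, and it is given with its standard error (SE).

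The cells came from male C57BL/6N mice aged 8 to 12 weeks, from a single animal or a pool of up to 3, and which array came from which preparation is not given in the labels. They were kept sub-confluent on collagen I. They attached in medium with serum, dexamethasone and insulin, stayed a day in serum-free medium with dexamethasone and spent the last 4 h before 0 h in starvation medium with neither dexamethasone nor insulin. All groups share this protocol. The other arrays were a control labelled -5 h, 4 arrays with IL-6 at 40 ng/ml from 1 to 4 h, and 8 arrays that had both IL-6 and HGF, each at 40 ng/ml, from 5 to 24 h, the HGF having been added at 4 h. With 1 array at each time, the times stand in for replicates, and p-values measure only the scatter of these arrays around a line. Time, array and dish cannot be told apart.

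Hepatocytes are the metabolic cells of the liver, and in the adult organ they rarely divide. As background, isolated hepatocytes on a stiff collagen surface are known to lose liver functions such as cytochrome P450 expression, and dexamethasone and insulin in the medium are known to slow this. Isolation is also known to bring these cells from rest into G1, while passage into S phase and mitosis usually needs a growth factor such as HGF or EGF. Genes of G2 and mitosis are transcribed late in the cycle, and their promoters are known for the cell cycle genes homology region (CHR), read by MuvB complexes, and for CCAAT boxes, bound by NF-Y.

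Most of the 15 largest fitted rises belonged to genes of mitosis, and promoter stretches of Ube2c and Mki67 are shown with those of Cdc20, a mitosis gene that did not pass, and Hmgcs1, the cholesterol synthesis gene whose 9-letter match to a sterol element was the only 1 in its list. Mitosis genes were taken in order of fitted change, and those without both a CHR and a CCAAT match were passed over. The stretches therefore do not show how often these motifs occur in the list. Each stretch has 120 bases from the region before the annotated start, 5′ to 3′ on the gene's strand, from RefSeq (GRCm38.p6). Counted from the start, it runs from -120 to -1 in Ube2c and Cdc20. In Mki67 it runs from -158 to -39 and in Hmgcs1 from -197 to -78. Capitals mark CHR letters (TTTGAA, or its complement) and CCAAT boxes (or their complement) in the mitotic genes, and in Hmgcs1 the sterol element (TCACNCCAC) and a CCAAT box. Ube2c lies at chr2:164769809-164769928 on the plus strand, Mki67 at chr7:135716418-135716537 on the minus strand, Cdc20 at chr4:118437344-118437463 on the minus strand and Hmgcs1 at chr13:119690154-119690273 on the plus strand.
Ube2c: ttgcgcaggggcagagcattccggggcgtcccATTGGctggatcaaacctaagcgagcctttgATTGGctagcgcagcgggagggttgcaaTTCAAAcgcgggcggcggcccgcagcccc
Mki67: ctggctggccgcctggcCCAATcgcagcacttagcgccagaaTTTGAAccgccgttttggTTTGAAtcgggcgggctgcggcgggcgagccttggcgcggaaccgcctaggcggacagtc
Cdc20: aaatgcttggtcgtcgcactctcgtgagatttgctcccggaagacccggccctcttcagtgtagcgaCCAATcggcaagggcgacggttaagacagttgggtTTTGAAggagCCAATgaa
Hmgcs1: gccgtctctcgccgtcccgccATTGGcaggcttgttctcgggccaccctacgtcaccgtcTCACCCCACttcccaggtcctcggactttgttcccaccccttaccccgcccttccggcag
Either strand of the 250 bases before each annotated start was searched, and a gene counted if any of its starts had a match. CCAAT stood in 25 of the 34 mitosis genes with a promoter (73.5%) and in 16 of 17 for cholesterol synthesis (94.1%). It stood in 39.4% of the 14452 measured genes with a promoter. TTTGAA stood in 11 of 34 mitosis genes (32.4%), in 11 of 36 genes of the cytochrome P450 list (30.6%) and in 14.1% of measured genes. TCACNCCAC was found in 1 of 17 cholesterol synthesis genes and in 1.27% of measured genes. These are letter matches and no measure of binding, and CCAAT and TTTGAA do not overlap in the stretches shown.

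Hepatocyte markers were present on every control array, and 1 of 10, Tat, fell over 0 to 24 h (limma's adjusted p under 0.05, which 1.47% of all genes passed as falls), while 9 were not called. Alb, which encodes albumin, read 14.86, 14.87, 14.86, 14.85 and 14.72 log2 at 0, 4, 8, 12 and 24 h, close to the highest value of the table, 15.05, where a probe may no longer respond to a change. The lowest value of any of the 10 on these arrays was 6.89 log2, for Tat at 24 h. The mean level of these 10 markers was 12.5 log2 at 0 h and 11.1 at 24 h. Hnf4a, the transcription factor that maintains hepatocyte identity, read 10.81, 10.74, 10.89, 10.88 and 11.09, and its slope did not pass the threshold (adjusted p = 0.405). Markers of other liver cells were present: on the 0 h and 24 h arrays the mean level was 7.53 and 7.16 log2 over 22 Kupffer cell genes, 6.93 and 6.85 over 20 endothelial genes, 6.39 and 6.64 over 20 stellate and fibroblast genes, and 6.95 and 7.50 over 12 cholangiocyte and progenitor genes. The 12 lymphocyte genes were dimmest, at 4.95 and 4.81.

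Array medians of the controls lay between 5.47 and 5.54 log2, and the mean correlation of a control with the other 4 was lowest at 24 h, at 0.986 against 0.989 to 0.994 for the rest. Nuclear RNA differed along the series. Malat1 read 11.04 log2 on the -5 h control and 11.52 at 0 h, and between 9.35 and 9.81 on the controls from 4 to 24 h. It read between 11.24 and 11.65 on the arrays with IL-6, and between 9.16 and 12.68 on those with IL-6 plus HGF. Neat1 read 11.14, 8.12, 8.49, 10.05 and 8.10 in order of time from 0 h, after 9.92 at -5 h. The 3' minus 5' difference of the pyruvate carboxylase control probes was 1.72 log2 at 0 h and between 1.40 and 1.47 later. The part of these features in the slopes was not tested.

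Over 0 to 24 h, 390 genes rose (2.14% of those tested) and 267 fell (1.47%), with limma's moderated test and a Benjamini-Hochberg adjusted p under 0.05. All 657 had a slope of the same sign over 0 to 12 h. Of the risers 278 increased at each of the 4 steps, and of the fallers 176 decreased at each. The share of risers among calls was 59.4% with the deposited values, 50.9% when the arrays were quantile normalized and 43.5% when each was centred by its median. Centring moved the median fitted change of all genes from -0.01 to -0.11.

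Without the 24 h array, 391 genes rose (2.15%) and 275 fell (1.51%), and 436 genes were called over both spans, 66.4% of the first set and 65.5% of the other. The count leaned on single arrays. It was 295 without the 0 h array, 23 without 4 h, 32 without 8 h and 170 without 12 h, each with 4 points for a line. No call changed sign in these fits, which reuse arrays of the full fit. Of 115 genes named by a fixed rule and called, 8 remained called with each control array left out in turn, at adjusted p-values of at most 0.0469.

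These 8 genes changed in the same direction at all 4 steps. Npy, which encodes neuropeptide Y, read 10.32, 9.17, 8.64, 8.27 and 7.38 log2 at 0, 4, 8, 12 and 24 h, 7.66-fold lower at the end (fitted change -2.84 ± 0.21 SE, adjusted p = 0.00647). Pgf, a ligand of the VEGF receptor family, read 9.92, 8.02, 7.69, 7.44 and 7.09. Most of its fall, 3.73-fold, lay between 0 and 4 h. Cldn1, a tight junction protein, read 9.62, 8.46, 8.09, 7.89 and 7.50, and Dusp5, a nuclear phosphatase of ERK, read 9.06, 8.20, 7.84, 7.56 and 7.30. In both, the drop was largest in the first 4 h. Inmt, an indolamine methyltransferase, read 7.73, 7.01, 6.51, 6.26 and 5.80. Fgfr4, the hepatocyte receptor for the intestinal hormone FGF15, read 9.59, 8.71, 8.19, 7.98 and 7.44 (fitted change -2.14 ± 0.15, adjusted p = 0.00647). Fgfr4 is 1 of the named genes whose other probe sets did not all share the sign. The 2 risers were Vnn1, the pantetheinase, at 9.52, 10.60, 11.10, 11.21 and 11.95, and Tuba1a, an alpha-tubulin, at 10.50, 11.46, 11.84, 12.21 and 12.66. Their fitted changes were 2.35 ± 0.16 and 2.16 ± 0.14, both with an adjusted p of 0.00647.

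Other genes with the largest falls encode scaffolds, transporters and metabolic enzymes. Akap12, an anchoring protein of protein kinase A, read 9.48, 8.29, 7.62, 6.81 and 7.20 log2 (fitted change -2.62 ± 0.37, adjusted p = 0.0246). Nipal1, a magnesium transporter, read 10.91, 10.15, 9.75, 9.08 and 8.26, and Ttc16, a tetratricopeptide repeat protein, read 8.22, 6.78, 6.23, 5.77 and 5.63. Car3, the cytosolic carbonic anhydrase III, read 12.59, 12.11, 11.70, 10.96 and 10.18, Hsd17b6, a hydroxysteroid dehydrogenase, read 7.84, 7.28, 6.80, 6.62 and 5.12, and the carboxylesterase gene Ces1f read 8.30, 7.57, 7.16, 6.80 and 5.87. For Car3 and Hsd17b6 1 other probe set each went the other way. Akap12 had its lowest value at 12 h, and the other genes of this group had theirs at 24 h. Among the largest rises outside the cell cycle, Bicc1, an RNA-binding protein, read 7.54, 8.30, 8.72, 9.06 and 10.68, and the choline transporter-like gene Slc44a2 read 5.71, 6.23, 6.97, 7.13 and 8.72.

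**Figure D1:**
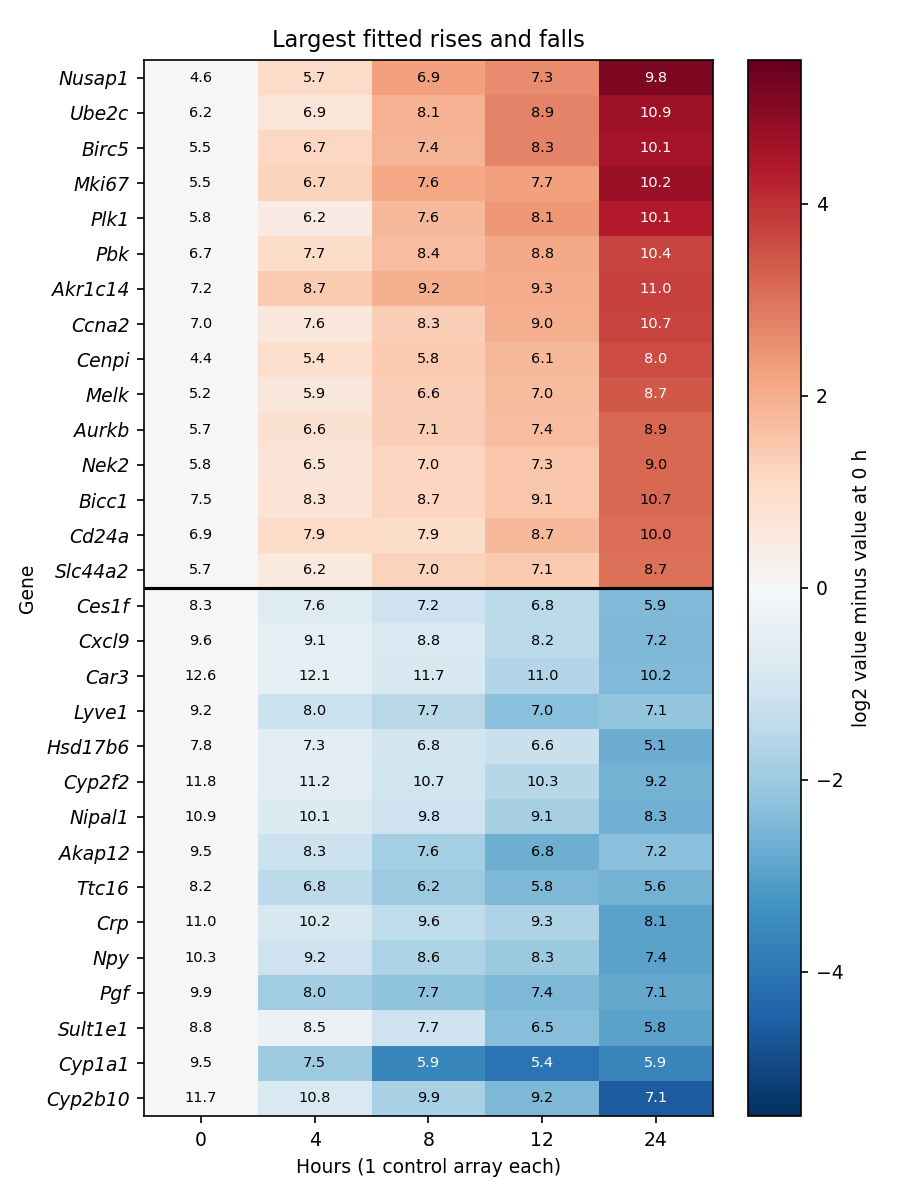
Heat map of the 15 largest fitted rises and the 15 largest fitted falls among genes called over 0 to 24 h. Rows are genes, columns are the 5 control arrays by hour, printed numbers are log2 values and colour is the log2 difference from 0 h, and Nusap1 at the top goes from 4.65 to 9.78 while Cyp2b10 at the bottom goes from 11.67 to 7.10.

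Without IL-6 or HGF, genes of G2 and mitosis were among the genes with the largest fitted rises. All 40 measured genes of the G2 and mitosis list had a positive slope, 10 rose past the threshold and 0 fell, and the median fitted change was 2.86 log2 against -0.01 over all genes. The median difference from 0 h was 0.28 log2 at 4 h, 0.95 at 8 h, 1.38 at 12 h and 3.23 at 24 h. Over 0 to 12 h 19 of the 40 rose. The adjusted count depended on the fit: 38 rose with the spread pooled over 17 arrays, 31 without the 0 h array, 2 with an intensity trend and robust variance, and 0 without the 4, 8 or 12 h array.

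Nusap1, a microtubule-binding protein of the spindle, had the largest fitted rise. It read 4.65, 5.71, 6.89, 7.25 and 9.78 log2, 34.9-fold higher at 24 h than at 0 h (fitted change 4.67 ± 0.78, adjusted p = 0.0342). Mki67, the Ki-67 antigen that coats mitotic chromosomes, read 5.45, 6.66, 7.58, 7.69 and 10.16, with a plateau between 8 and 12 h (fitted change 4.21 ± 0.70, adjusted p = 0.0337). Among the controls from 0 to 24 h, each of these genes was at its lowest at 0 h and at its highest at 24 h. Ube2c, the ubiquitin-conjugating enzyme of the anaphase-promoting complex, read 6.21, 6.90, 8.14, 8.94 and 10.88. Birc5, the survivin subunit of the chromosomal passenger complex, read 5.55, 6.70, 7.42, 8.28 and 10.08, and its kinase partner Aurkb read 5.74, 6.58, 7.10, 7.45 and 8.92. All 3 passed the threshold, at adjusted p-values of 0.0363, 0.0256 and 0.0272.

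Further kinases and cyclins of mitosis were also highest at 24 h. Plk1, the polo-like kinase, read 5.77, 6.20, 7.56, 8.13 and 10.12. Its step was small up to 4 h. Ccna2, cyclin A2, read 6.95, 7.59, 8.30, 8.96 and 10.67 (fitted change 3.41 ± 0.63, adjusted p = 0.0429), and Cks1b, a subunit of cyclin-dependent kinases, read 11.01, 11.49, 11.67, 11.86 and 12.54. Pbk and Melk, kinases of dividing cells, had fitted changes of 3.43 ± 0.48 and 3.12 ± 0.57, the kinetochore gene Cenpi 3.20 ± 0.54 and the centrosomal kinase gene Nek2 2.82 ± 0.53, all past the threshold. For Nek2 1 of 4 probe sets had the other sign. Cdc20, the activator of the anaphase-promoting complex whose promoter is printed above, read 6.87, 7.00, 8.02, 8.69 and 10.81 and did not pass (adjusted p = 0.078). It was chosen for its promoter and not by the naming rule.

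Replication genes had smaller and later differences from 0 h. Past the threshold 1 of the 42 measured genes of DNA replication rose (2.38%, near the 2.14% of all genes) and 0 fell. A positive slope was seen in 36, and the median fitted change of the 42 was 0.65 log2. Their median difference from 0 h was 0.14 log2 at 12 h and 0.83 at 24 h. The riser was Gins4, a subunit of the replicative helicase, at 8.26, 8.69, 8.86, 9.04 and 9.51 log2 (fitted change 1.17 ± 0.17, adjusted p = 0.0257).

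Among 29 measured genes of G1 and of entry into S phase 1 rose and 1 fell (3.45% each, against 2.14% and 1.47% of all genes), and the median fitted change was 0.26 log2. Cdkn2d, the p19 inhibitor of CDK4 and CDK6, rose through 5.53, 6.02, 6.33, 6.52 and 7.43 (adjusted p = 0.0356), and E2f4, a repressive E2F factor, fell through 8.64, 8.36, 8.21, 8.13 and 7.89 (adjusted p = 0.0403). Ccnd1, cyclin D1, stayed between 8.01 and 8.16 up to 12 h and read 9.81 at 24 h, and its slope over 0 to 24 h did not pass (adjusted p = 0.342).

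**Figure D2:**
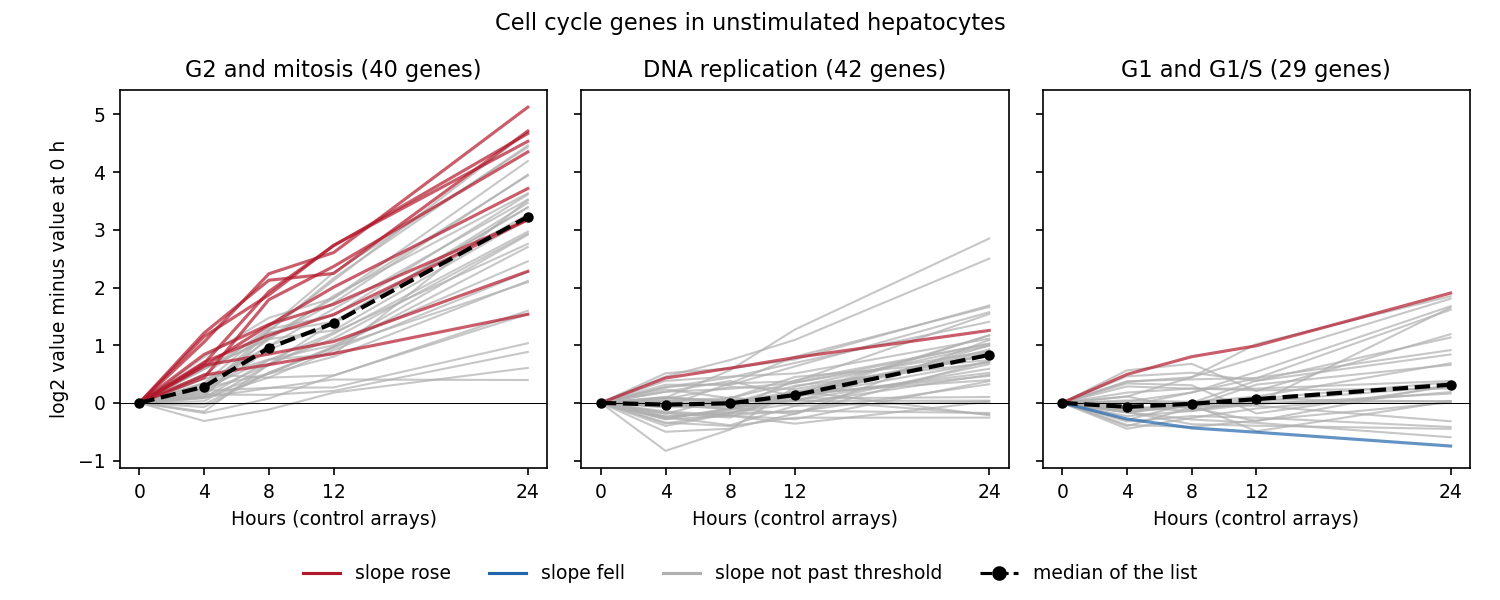
Courses of the G2 and mitosis, DNA replication and G1 genes, as log2 difference from 0 h (y axis) by hour of the control array (x axis), with 1 line a gene coloured by whether its slope rose, fell or did not pass, and the list median dashed. At 24 h the medians are 3.23, 0.83 and 0.32 log2.

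Genes of cytochrome P450 and other oxidation enzymes were lower at 24 h, some through a gradual course and some through a step after 12 h. Of 44 measured genes 0 rose and 8 fell, 30 had a negative slope, and the median fitted change was -1.08 log2. The falls were 18.2% of the list, against 1.47% of all genes. Their median difference from 0 h was -0.29 log2 at 12 h and -1.19 at 24 h. The number of falls was 15 without the 0 h array, 0 without the 4, 8 or 12 h array and 11 without the 24 h array. Members of this family share sequence, so a probe set can read more than 1 of them.

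Cyp2b10, the drug-metabolizing enzyme induced through the receptor CAR, had the largest fall. It read 11.67, 10.85, 9.90, 9.18 and 7.10 log2, 23.6-fold lower at 24 h (fitted change -4.20 ± 0.74, adjusted p = 0.0383). Cyp1a1, the classical target of the aryl hydrocarbon receptor, read 9.49, 7.52, 5.88, 5.42 and 5.88 (fitted change -4.17 ± 0.60, adjusted p = 0.0251). Its level at 0 h was also far above the 5.40 of the control at -5 h, and its 12 and 24 h values lay within 0.5 log2 of the -5 h value. Cyp2f2 read 11.82, 11.24, 10.72, 10.26 and 9.23, Cyp4f14 read 8.21, 7.63, 7.22, 6.91 and 5.96, and Cyp4b1 read 9.70, 8.80, 8.97, 8.58 and 8.30. The first of these 3 lost about the same amount at each step up to 12 h, while Cyp4b1 fell mostly within the first 4 h.

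Cyp3a11, the main CYP3A enzyme of mouse liver, behaved differently. It read 13.41, 13.16, 12.91, 12.79 and 9.91 log2, with a 7.39-fold drop between 12 and 24 h, and its slope did not pass (adjusted p = 0.185). Cyp2e1, the ethanol-oxidizing enzyme, read 12.77, 12.30, 11.79, 10.98 and 8.67 and was 17.2-fold lower at 24 h, with an adjusted p of 0.0786. Over 0 to 12 h 4 genes of the list rose, and they were looked up after the counts were seen: Fmo1, Fmo5, Cyp26a1 and Aox3. Fmo5, a flavin-containing monooxygenase, read 8.99, 9.49, 9.90, 10.47 and 9.21, highest at 12 h.

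The conjugation enzymes did not move together. Of 43 measured genes 10 rose and 5 fell (23.3% and 11.6%, against 2.14% and 1.47% of all genes). The median fitted change was 0.06 log2, or -0.04 with centred arrays. Nnmt, nicotinamide N-methyltransferase, rose through 10.09, 10.80, 10.92, 11.21 and 11.54 (adjusted p = 0.0134). Ugt2b34, a glucuronosyltransferase, rose through 10.44, 11.24, 11.50, 11.48 and 11.95, and the glutathione transferase gene Gsta4 through 9.89, 10.45, 10.69, 11.05 and 11.36, with adjusted p-values of 0.014 and 0.0165. Inmt and Sult1e1 were among the falls. Sult1e1, estrogen sulfotransferase, read 8.79, 8.47, 7.67, 6.46 and 5.84 (fitted change -2.99 ± 0.59, adjusted p = 0.0474). Akr1c14, a hydroxysteroid dehydrogenase, was the largest riser outside the cell cycle at 7.24, 8.68, 9.18, 9.30 and 11.02 (fitted change 3.42 ± 0.42, adjusted p = 0.0198). Left-out arrays gave 2 rises and 9 falls without 0 h, 0 and 1 without 4 h, 1 and 1 without 8 h, 4 and 1 without 12 h, and 12 and 3 without 24 h.

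Of 31 measured glucocorticoid targets 1 rose and 6 fell over 0 to 24 h (3.23% and 19.4%, against 2.14% and 1.47% of all genes). The median fitted change was -0.29 log2. The -5 h array precedes the starvation medium, which has no dexamethasone, only by the hours in the labels, and the medium of the controls after 0 h is not stated there. Fkbp5, Tsc22d3 and Per1, direct targets of the receptor, were lower at 0 h than on the -5 h array. Fkbp5 read 10.59 log2 at -5 h and then 9.85, 9.70, 9.71, 9.62 and 9.66, and Tsc22d3 read 8.51 and then 7.56, 7.64, 7.81, 7.85 and 7.77. Neither slope from 0 h passed (adjusted p = 0.403 and 0.299), and the -5 h level rests on 1 array. The list was mixed in this respect: at -5 h Mt1 read 13.67, Mt2 13.09 and Angptl4 11.62, all lower than at 0 h, while Tat read 9.51 and Tdo2 9.45, both higher than at 0 h. The list median was 0.15 log2 higher at -5 h than at 0 h.

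Tat, tyrosine aminotransferase, read 9.19, 8.25, 7.90, 7.84 and 6.89, 4.92-fold lower at 24 h (fitted change -2.12 ± 0.23, adjusted p = 0.0164). The metallothionein Mt1 read 14.07, 13.41, 12.72, 12.85 and 11.77, and Mt2 read 13.50, 12.56, 12.52, 12.71 and 11.78. The lipoprotein lipase inhibitor Angptl4 fell through 11.97, 11.47, 11.38, 11.18 and 10.76. Tdo2, tryptophan dioxygenase, was the riser, at 8.45, 8.84, 9.42, 9.47 and 9.60 (adjusted p = 0.0259). Without the 0, 4, 8 or 12 h array the falls numbered 1, 0, 0 and 3, and without 24 h they numbered 7.

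In glucose metabolism 0 of 22 measured genes of gluconeogenesis and glycogen rose and 4 fell (18.2%, against 1.47% of all genes). Fbp1, fructose bisphosphatase, fell through 11.37, 10.75, 10.56, 10.46 and 9.94 (fitted change -1.34 ± 0.16, adjusted p = 0.0178), and Pcx, pyruvate carboxylase, through 9.79, 9.37, 9.26, 9.26 and 9.14. The glucose-6-phosphate transporter gene Slc37a4 and the glucose transporter gene Slc2a2 had fitted changes of -1.05 ± 0.19 and -1.23 ± 0.24. Without the 0, 4, 8 or 12 h array the falls numbered 0, 0, 0 and 1. Pck1, phosphoenolpyruvate carboxykinase, had no steady course: it read 6.93 log2 at -5 h, then 3.88, 4.68, 6.50, 7.17 and 3.89, and rose over 0 to 12 h only (adjusted p = 0.0305).

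Enzymes of amino acid breakdown gave 4 rises and 4 falls among 47 measured genes (8.51% each, against 2.14% and 1.47% of all genes). Gpt2, mitochondrial alanine aminotransferase, rose through 10.84, 11.34, 11.55, 11.69 and 12.20 (adjusted p = 0.0224), and Csad, an enzyme of taurine synthesis, rose through 7.33, 7.85, 8.23, 8.92 and 8.97 (adjusted p = 0.0257). In the urea cycle 0 of 14 genes passed. Otc, ornithine transcarbamylase, read 10.08, 9.86, 9.34, 8.95 and 8.05 with an adjusted p of 0.0519, and Glul, glutamine synthetase, read 8.90, 9.46, 9.49, 9.38 and 9.88. Without the 4 or the 8 h array 0 amino acid genes passed.

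Cholesterol synthesis genes declined at every time point by their median. All 21 measured genes had a negative slope, and the median fitted change was -0.82 log2. Past the threshold 7 fell (33.3%, against 1.47% of all genes) and 0 rose. The median difference from 0 h was -0.61 log2 at 12 h and -0.83 at 24 h. Hmgcs1, a synthase of the pathway, read 12.50, 12.08, 11.79, 11.45 and 11.21, 2.45-fold lower at 24 h (fitted change -1.31 ± 0.17, adjusted p = 0.0217). Lss, lanosterol synthase, read 9.66, 9.20, 8.97, 8.84 and 8.58 (adjusted p = 0.0178). Msmo1 and Idi1, a sterol oxidase and the isopentenyl isomerase, had fitted changes of -1.32 ± 0.20 and -0.99 ± 0.17. With the spread pooled over 17 arrays 17 fell and with centred arrays 14, while without the 0, 4, 8, 12 or 24 h array 1, 0, 0, 1 and 4 fell. Of 27 measured genes of fatty acid synthesis 1 fell (3.7%, against 1.47% of all genes). It was Fasn, at 10.01, 9.36, 9.34, 8.98 and 9.15 (adjusted p = 0.0494).

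Fatty acid oxidation gave 3 rises and 1 fall among 41 genes (7.32% and 2.44%, against 2.14% and 1.47% of all genes). The median fitted change of 0.01 log2 was -0.09 with centred arrays. Hadh, a dehydrogenase of beta-oxidation, rose through 11.81, 12.23, 12.41, 12.51 and 12.64. Bdh1, a ketone body enzyme, rose through 7.98, 8.54, 8.90, 9.36 and 9.19, and the peroxisomal thiolase gene Acaa1b fell through 10.93, 10.50, 10.18, 9.99 and 9.07. In the respiratory chain 39 of 46 genes had a positive slope and 0 passed, with a median of 0.15 log2 (0.05 centred). The 2 with the smallest p were Ndufs4, a subunit of complex I, with a fitted change of 0.58 ± 0.13, and the mitochondrial transcription factor gene Tfam, with 0.60 ± 0.14 (adjusted p = 0.0631 and 0.0656).

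**Figure D3:**
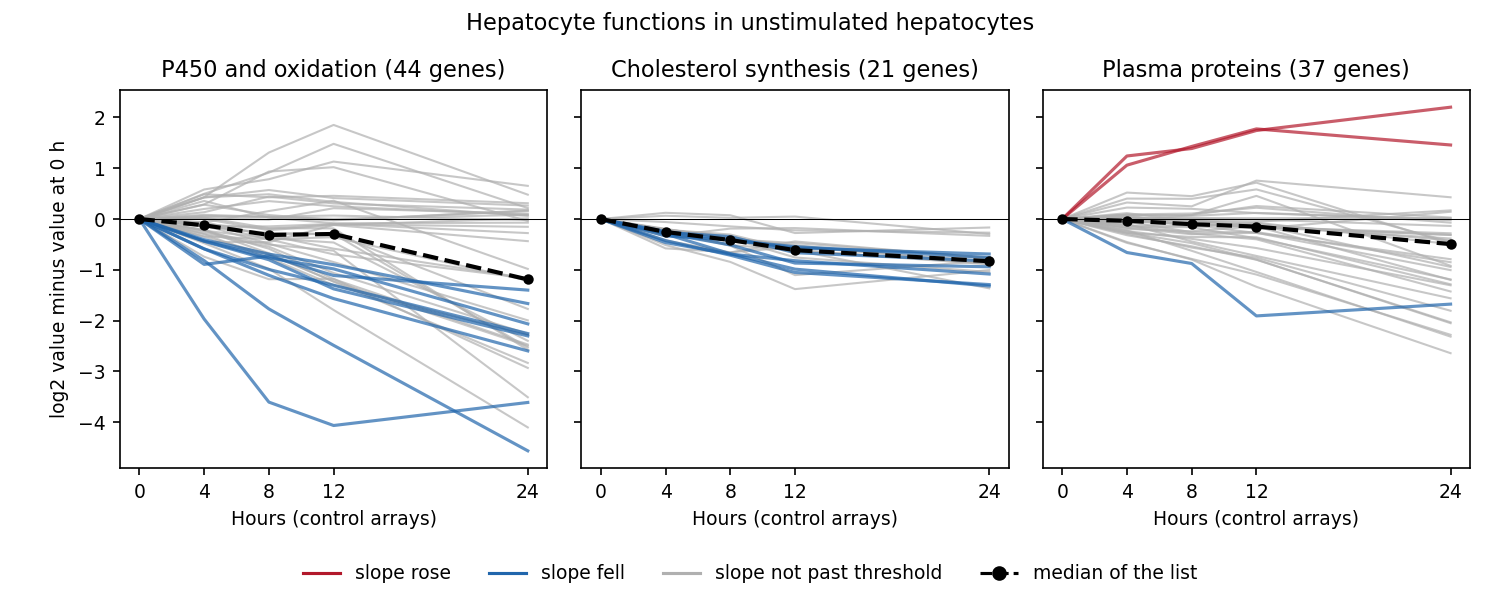
Courses of P450 and oxidation, cholesterol synthesis and plasma protein genes, as log2 difference from 0 h (y axis) by hour of the control array (x axis), with 1 line a gene coloured by its call and the list median dashed. The cholesterol synthesis median goes steadily to -0.83 log2 at 24 h, while the P450 median is at -0.29 at 12 h and -1.19 at 24 h.

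Bile acid genes moved both ways, with 2 rises and 4 falls among 35 (5.71% and 11.4%, against 2.14% and 1.47% of all genes). Cyp39a1, an oxysterol hydroxylase, rose through 7.60, 8.55, 8.71, 8.92 and 9.34 (fitted change 1.69 ± 0.13, adjusted p = 0.00858). The canalicular transporters went in opposite directions: Abcb11, the bile salt export pump, fell through 7.27, 6.94, 6.70, 6.54 and 6.09, and Abcc2, the conjugate exporter, rose through 8.78, 9.31, 9.63, 9.55 and 10.39, with adjusted p-values of 0.0296 and 0.0337. Cyp7a1, the hydroxylase that opens the classical bile acid pathway, stayed between 4.32 and 4.63. A single rise and 1 fall were counted without the 4 or the 8 h array.

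Among 37 plasma protein genes that encode secreted products, 2 rose and 1 fell over 0 to 24 h. These were 5.41% and 2.7%, against 2.14% and 1.47% of all genes. Over 0 to 12 h 2 rose and 4 fell. The list median differed from 0 h by -0.15 log2 at 12 h and by -0.49 at 24 h. Serpina7, thyroxine-binding globulin, rose through 8.03, 9.27, 9.42, 9.77 and 10.23 (fitted change 2.16 ± 0.15, adjusted p = 0.00647), and Saa4, the constitutive serum amyloid, rose through 7.16, 8.22, 8.59, 8.94 and 8.62. Both stood higher on the -5 h array than at 0 h, at 9.08 and 8.27. Serpina6, corticosteroid-binding globulin, fell through 6.67, 6.02, 5.80, 4.77 and 5.00 (adjusted p = 0.0428). The pentraxin gene Crp, which is in no list used here, fell through 11.02, 10.16, 9.62, 9.32 and 8.07 (fitted change -2.73 ± 0.36, adjusted p = 0.0224).

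Complement and coagulation gave 1 rise and 2 falls among 33 genes (3.03% and 6.06%, against 2.14% and 1.47% of all genes). C9, the last component of the membrane attack complex, fell through 11.27, 10.81, 10.43, 10.22 and 9.45, and Hc, complement C5, through 11.02, 10.69, 10.49, 10.14 and 9.77. Mbl2, a mannose-binding lectin, rose through 12.46, 12.86, 13.02, 13.22 and 13.31. The acute-phase gene Saa1 read 14.06, 14.10, 13.94, 13.79 and 13.27, and Socs3, the feedback inhibitor of IL-6 signalling, read 7.60, 7.12, 7.47, 7.28 and 7.23, with neither past the threshold. Without the 4, 8 or 12 h array 0 complement genes passed.

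The IGF axis and receptor list gave 1 rise and 3 falls among 33 genes (3.03% and 9.09%, against 2.14% and 1.47% of all genes). Igfbp2, an IGF-binding protein, fell through 10.50, 9.98, 9.48, 9.08 and 8.24 (fitted change -2.15 ± 0.32, adjusted p = 0.026). Lifr, a receptor chain of LIF, fell through 8.42, 8.08, 7.78, 7.83 and 7.17, with 1 of its 3 probe sets of the other sign. Slc40a1, the iron exporter ferroportin, which the list holds, rose through 10.25, 10.95, 11.01, 10.98 and 11.48. Igfbp1 read 12.42, 12.78, 12.91, 13.18 and 12.88 and did not pass (adjusted p = 0.139). Among liver-enriched transcription factors 2 of 38 rose (5.26%, against 2.14% of all genes) and 0 fell. They were Klf15, a regulator of fasting metabolism, at 5.94, 6.62, 6.80, 7.06 and 7.08, and Prox1, a homeobox factor of liver development, at 5.81, 6.33, 6.45, 6.69 and 7.08 (adjusted p = 0.0198 and 0.0206).

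Genes of the immediate early response were highest at 0 h among the named members. In this list 6 of 42 fell (14.3%, against 1.47% of all genes) and 0 rose, with Dusp5 above. Fosl1 read 10.84, 10.22, 9.98, 9.71 and 9.28 (fitted change -1.52 ± 0.15, adjusted p = 0.014). Jun read 10.84, 10.28, 10.18, 10.14 and 9.82, and Fosl2 read 8.82, 8.35, 8.22, 8.00 and 7.97. At -5 h these 3 stood lower than at 0 h, at 10.44, 10.22 and 7.76. The list had 2, 1, 1 and 3 falls without the 0, 4, 8 or 12 h array.

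Targets of SRF, YAP and TGF-beta gave 1 rise and 3 falls among 38 (2.63% and 7.89%, against 2.14% and 1.47% of all genes). Srf itself fell through 9.85, 8.95, 8.81, 8.85 and 8.08, the tissue factor gene F3 through 10.99, 10.14, 9.97, 9.89 and 9.63, and the YAP target Ccn1 through 11.98, 11.65, 11.41, 11.38 and 10.74. The inhibitory Smad gene Smad6 rose through 4.63, 4.97, 5.18, 5.29 and 5.90. Without the 4 or the 8 h array 0 of these passed.

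Chemokine and NF-kB genes gave 0 rises and 5 falls among 42 (11.9% fell, against 1.47% of all genes). Cxcl2, a neutrophil chemokine, read 6.98, 6.06, 5.41, 5.78 and 4.97, Nfkb2 read 10.14, 9.44, 9.34, 9.36 and 8.69, and Ccl7 read 6.43, 5.88, 5.48, 5.48 and 5.32, with adjusted p-values of 0.0224, 0.0265 and 0.0207. Cxcl9, a chemokine induced by interferon gamma, fell through 9.64, 9.11, 8.82, 8.15 and 7.15. Interferon-response genes gave 1 rise and 3 falls among 43 (2.33% and 6.98%, against 2.14% and 1.47% of all genes). Iigp1, an interferon-induced GTPase, rose through 9.88, 10.66, 11.06, 11.14 and 11.23, and Rsad2, viperin, fell through 9.63, 9.30, 9.03, 8.73 and 8.25. The falls of the chemokine list numbered 2, 0, 0 and 3 without the 0, 4, 8 or 12 h array.

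Of 39 measured genes of ribosome assembly 6 fell (15.4%, against 1.47% of all genes), 0 rose and 33 were not called. A negative slope was seen in 35, and the median fitted change was -0.43 log2. Rrp12, a factor of pre-ribosome export, read 8.42, 7.89, 7.75, 7.51 and 7.29 (fitted change -1.12 ± 0.13, adjusted p = 0.0178). Rrp1b, Mybbp1a and Nop56, nucleolar proteins, had fitted changes of -1.04 ± 0.13, -0.85 ± 0.13 and -0.91 ± 0.14. Pooled over 17 arrays 17 fell, while 0 fell without the 0, 4 or 8 h array and 2 without 12 h.

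Autophagy and lysosome genes gave 5 rises and 0 falls among 32, with a median of 0.22 log2. The rises were 15.6% of the list, against 2.14% of all genes. Gabarapl1, a conjugated ATG8 protein, read 10.88, 11.44, 11.55, 11.72 and 11.77 (adjusted p = 0.0256), and the alpha-galactosidase gene Gla read 7.80, 8.30, 8.31, 8.59 and 8.96. Map1lc3b and Wipi1, further genes of autophagosome formation, had fitted changes of 0.88 ± 0.12 and 1.06 ± 0.16. For these last 3 genes 1 other probe set each went the other way. Without the 0, 4 or 8 h array 0 passed, and 1 passed without 12 h.

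Among 43 genes of the unfolded protein and amino acid response 0 rose and 3 fell (6.98%, against 1.47% of all genes): Chac1, the glutathione-degrading target of ATF4, at 9.32, 8.88, 7.90, 7.93 and 7.71, Ppp1r15a at 9.41, 9.12, 8.91, 8.67 and 8.57, and the arginine transporter gene Slc7a1 at 8.80, 8.49, 8.21, 7.99 and 7.87. The heat shock gene Hspa1a fell through 6.37, 5.82, 5.68, 5.81 and 5.32, the only call among 40 (2.5%). In the NRF2 and glutathione list 2 of 34 rose and 2 fell (5.88% each), the falls being Mt1 and Mt2, and Gpx4, a lipid peroxidase, rose through 12.41, 12.77, 12.79, 13.12 and 13.27. The kinase gene Plk3 fell through 8.22, 7.77, 7.71, 7.62 and 7.30, the only call among 27 p53 genes (3.7%). Adm, a hypoxia target, fell through 8.97, 7.83, 7.96, 7.77 and 7.35, the only call among 32 genes of glycolysis and hypoxia (3.12%).

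Cytoskeletal genes gave 5 rises and 3 falls among 62 (8.06% and 4.84%, against 2.14% and 1.47% of all genes). The median of the list was -0.15 log2. Tuba1a and the next 2 by p among the rises are microtubule genes. Stmn1, which binds free tubulin and is also a gene of dividing cells, read 9.30, 10.11, 10.59, 10.998 and 12.06 (fitted change 2.59 ± 0.33, adjusted p = 0.0219), and Tubb2b, a beta-tubulin, read 8.74, 9.60, 9.70, 9.74 and 10.46. Actb read 14.55, 14.53, 14.50, 14.28 and 14.45, and the intermediate filament gene Vim read 12.50, 12.35, 12.58, 12.68 and 13.47, with neither past the threshold. Without the 0, 4, 8, 12 or 24 h array 5, 1, 1, 2 and 4 rose.

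The clock list had 0 calls among 19 genes over 0 to 24 h, and several of its members turned within the day. Nr1d2, the nuclear receptor REV-ERB beta, read 8.68, 10.03, 10.99, 11.20 and 10.06. It rose over 0 to 12 h (adjusted p = 0.00403) and was 1.80 ± 0.19 log2 below that line at 24 h. Nfil3 read 8.93, 8.58, 7.81, 7.99 and 8.25, lowest at 8 h, with an adjusted p of 0.155 for its slope.

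**Figure D4:**
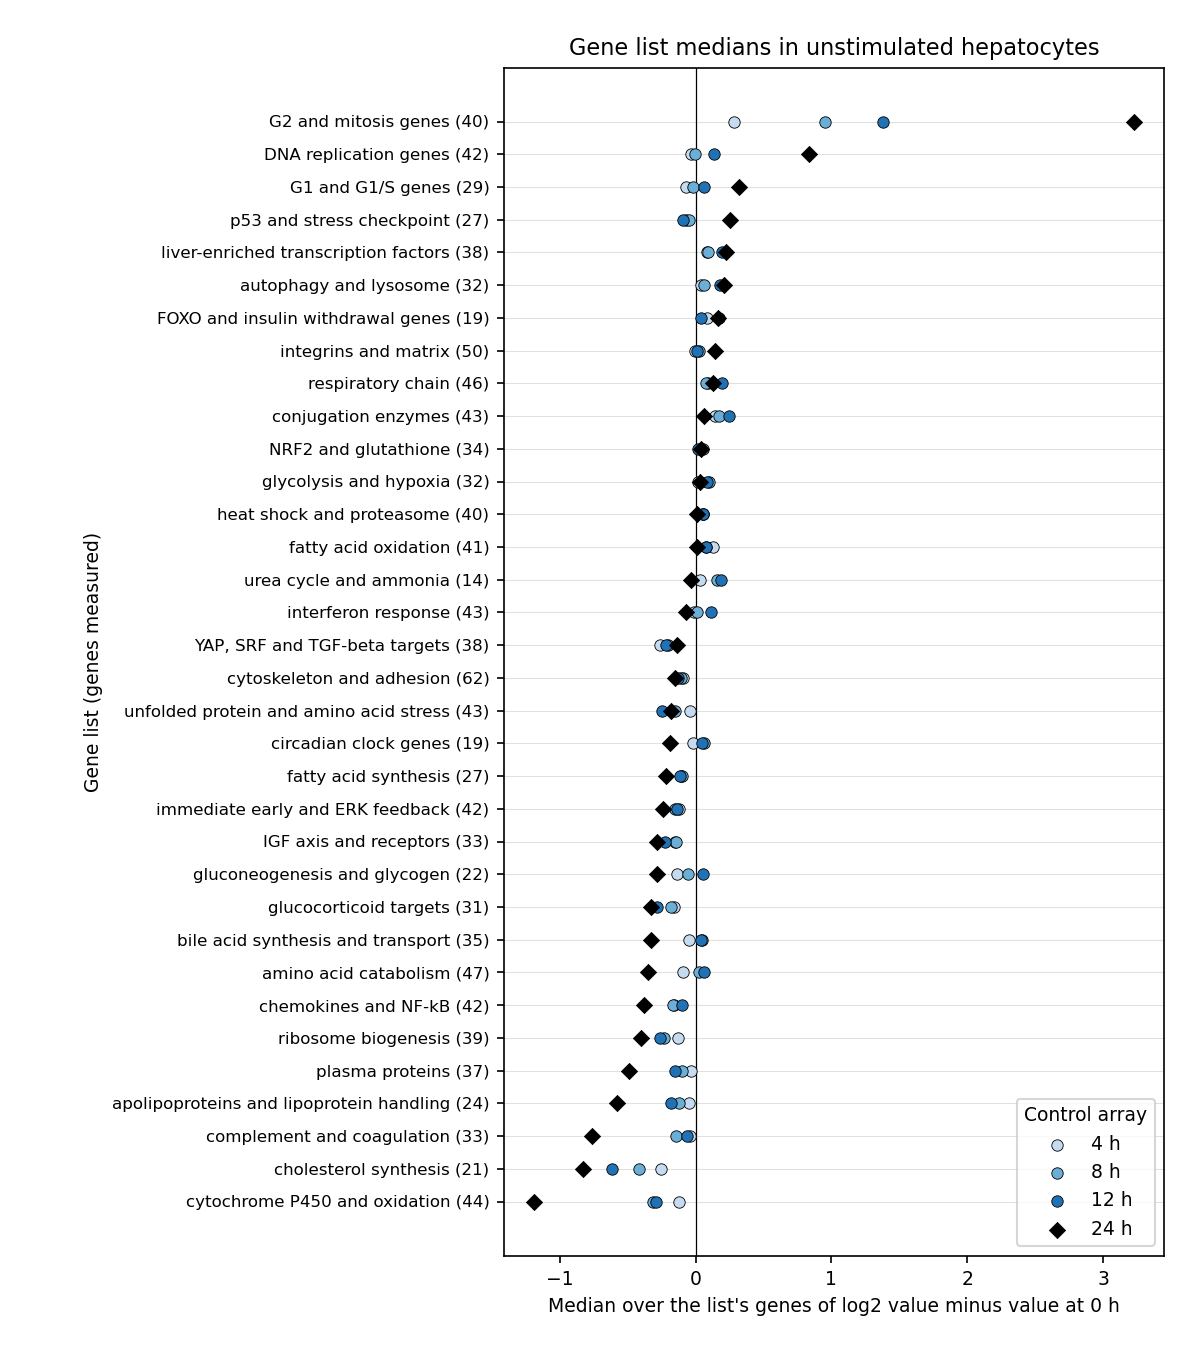
Median log2 difference from 0 h (x axis) of 34 gene lists (y axis, number of genes measured in brackets) on the control arrays at 4, 8, 12 and 24 h. G2 and mitosis genes reach 3.23 at 24 h and the P450 list -1.19, and most other lists stay near 0.

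The 24 h array was set against the line through 0 to 12 h of each gene. Against that line 341 genes were higher at 24 h (1.87%) and 191 lower (1.05%). Of these 532 genes 30 were also called over 0 to 24 h, where 2.14% of all genes rose and 1.47% fell. A 24 h value far off the line also adds scatter to the slope fit over 0 to 24 h. The overlap therefore does not show that the 2 sets are distinct. Between 12 and 24 h 278 genes were higher and 138 lower by over 1 log2, in an interval of 12 h. In the intervals of 4 h these numbers were 27 and 40 from 0 to 4 h, 9 and 2 from 4 to 8 h, and 2 and 14 from 8 to 12 h. Without the 8 h array 57 were higher and 45 lower, and without the 0, 4 or 12 h array the higher ones numbered 257, 489 and 494 and the lower ones 155, 251 and 236. The departure of any gene rests on 1 array at 24 h.

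The 6 named drops were genes of liver metabolism. Uox, urate oxidase, read 11.31, 11.10, 10.85, 11.17 and 7.16 log2, 16.1-fold lower at 24 h than at 12 h (departure -3.77 ± 0.19, adjusted p = 0.000857). Arg1, arginase of the urea cycle, read 9.13, 9.05, 9.89, 9.35 and 6.36, after 11.60 at -5 h. Rdh7, a retinol dehydrogenase, read 11.04, 11.31, 11.15, 11.23 and 8.15. Up to 12 h these 3 stayed within 1 log2. Fabp1, the fatty acid carrier of the liver, was already lower by then, at 11.55, 10.44, 9.86, 9.87 and 6.50 (departure -2.80 ± 0.16, adjusted p = 0.00115). Cyp3a11 and Pck1 departed by -2.78 ± 0.14 and -3.69 ± 0.57 log2. By list, 16 of 44 P450 and oxidation genes, 14 of 37 plasma protein genes and 12 of 33 complement genes lay below their lines. So did 12 of 47 amino acid genes and 6 of 24 apolipoprotein genes, against 1.05% of all genes.

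Among the 6 named upward departures, 4 genes had been below 5 log2 up to 12 h. Bex1, a small adaptor protein best known from neurons, read 4.03, 4.05, 3.98, 4.07 and 7.58 (departure 3.54 ± 0.13, adjusted p = 0.000465). Efemp1, a matrix glycoprotein, read 2.77, 3.02, 3.12, 3.45 and 6.25, and the kinase gene Nrk read 4.11, 3.79, 3.91, 3.96 and 6.60. Hamp, which encodes the iron hormone hepcidin, read 7.21, 6.07, 6.18, 6.35 and 9.21, a 7.24-fold rise in the last 12 h. Depdc1a and Ccnb2, genes of mitosis, read 7.08 and 10.33 at 24 h after 4.32 and 7.76 at 12 h. Ccnd1 was 1.72 ± 0.14 log2 above its line (adjusted p = 0.0039). Genes above their lines numbered 28 of 40 in the mitosis list, 11 of 42 for replication and 5 of 29 for G1. Among all genes 1.87% lay above.

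The same genes were then followed with IL-6 plus HGF, to ask where the course in time differed from control. Slopes on log2(hours) were compared over 4 control arrays from 4 to 24 h and 8 arrays with both factors from 5 to 24 h. The difference passed for 18 genes, of which 7 were steeper upward with the factors (0.0385%) and 11 steeper downward (0.0605%). At an unadjusted p under 0.05 there were 1144. The call was fragile: 0 genes passed without the control at 4 h, 0 with matched hours only, and between 3 and 44 without any other single array.

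The gene with the smallest p was Ugt2b36, a glucuronosyltransferase. It read 11.43, 11.57, 11.76 and 11.84 log2 in control from 4 to 24 h, and 11.10 at 5 h, 10.39 at 12 h and 9.35 at 24 h with the factors (slope difference -0.97 ± 0.11 log2 per doubling of hours, adjusted p = 0.00999). Gsta3, a glutathione transferase, read 10.75, 10.77, 11.10 and 11.12 in control, and 9.96, 9.41 and 8.28 at the same 3 times with the factors. Csad ended at 8.97 in control and at 6.42 with the factors. In control these 3 genes were highest at 24 h, and with the factors they were lowest then.

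Cldn1 fell in both settings, to 7.50 in control and 5.59 with the factors at 24 h, and Sult1e1 fell to 5.84 in control while it stood at 9.21 with the factors. Ggct, an enzyme of glutathione turnover, stayed between 7.93 and 8.10 in control from 4 h and reached 10.33 with the factors, and Havcr1, the injury marker KIM-1, read 4.91 in control and 8.08 with the factors at 24 h. In the mitosis, replication and P450 lists 0 genes passed this test, which does not show that their slopes were alike.

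**Figure D5:**
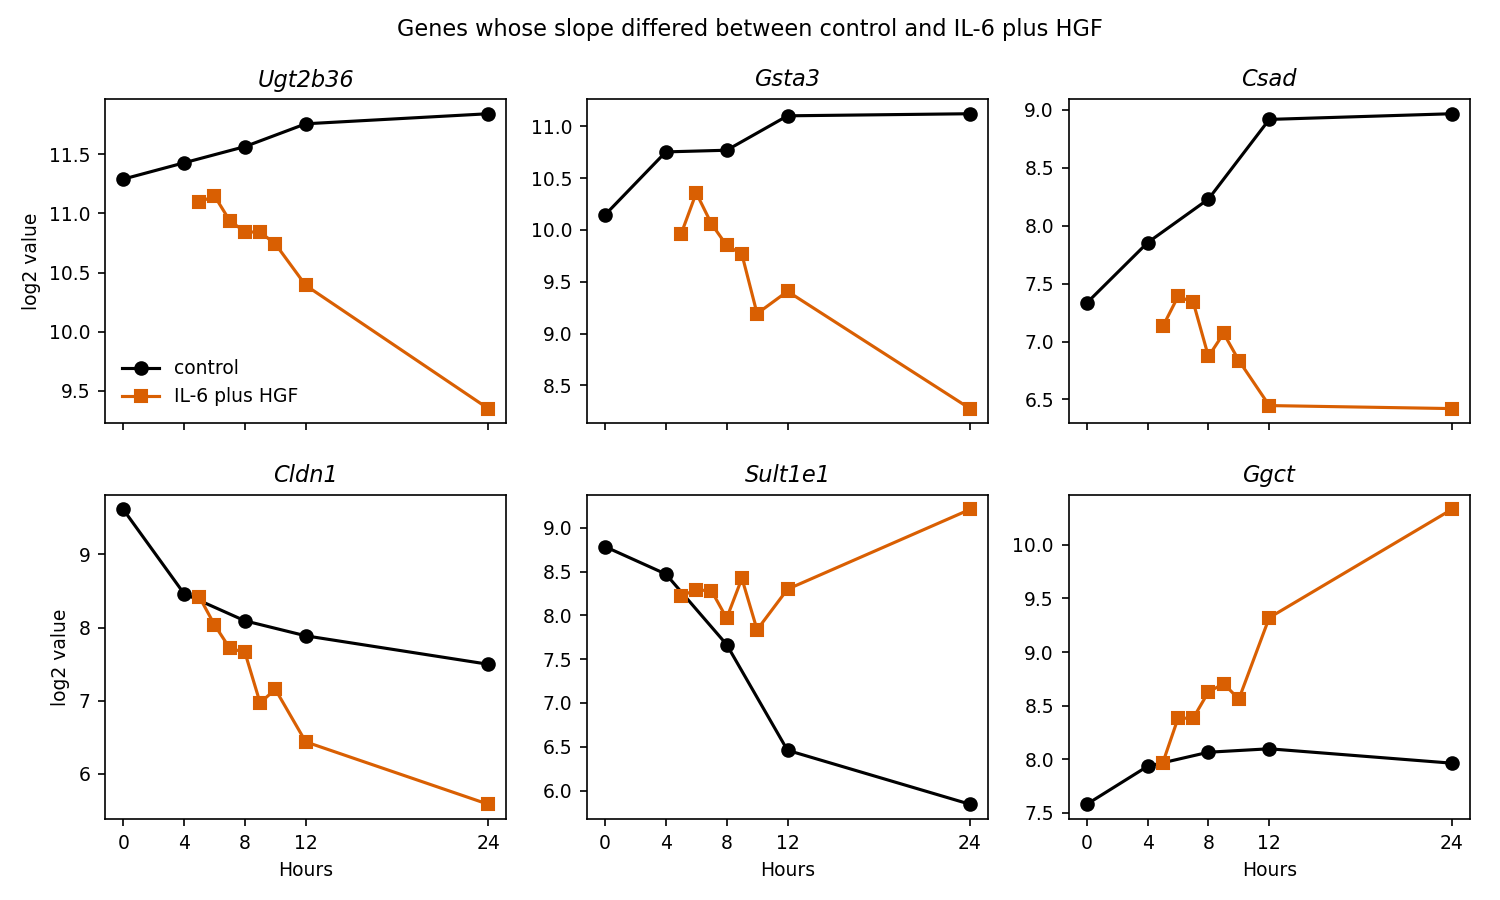
Log2 value (y axis) by hour (x axis) of 6 genes whose slope differed, with control arrays as circles and IL-6 plus HGF arrays as squares. Ugt2b36, Gsta3 and Csad end higher in control, and Sult1e1 and Ggct end higher with the factors.

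Markers of other cell types moved in some genes. Lyve1, a hyaluronan receptor of sinusoidal endothelium, fell through 9.24, 8.04, 7.72, 6.96 and 7.11 (fitted change -2.33 ± 0.27, adjusted p = 0.0178). It was the only call among 20 endothelial genes (5.0%, against 1.47% falls among all genes). Marco, a scavenger receptor of Kupffer cells, fell through 8.63, 7.98, 7.75, 7.54 and 6.44, the only call among 22 (4.55%). Col3a1 and Lum, collagen III and lumican, rose to 7.89 and 5.06 from 5.92 and 3.79. They were 2 of 20 stellate genes (10.0%, against 2.14% rises among all genes). Among 12 cholangiocyte and progenitor genes 16.7% rose and 8.33% fell. Cd24a rose through 6.89, 7.93, 7.91, 8.69 and 9.96 and Sox4 through 11.66, 12.01, 12.27, 12.29 and 12.94. Sox9 fell through 8.90, 8.38, 8.02, 7.84 and 7.80. In such mixed material fewer cells of a type and less RNA per cell cannot be told apart, and the part of other cells in the mitotic rise was not tested. Of the lymphocyte and the neutrophil and erythroid lists 0 of 12 and 0 of 9 passed.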

How the data were processed

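RNA of unstimulated primary hepatocytes on 5 Affymetrix arrays was compared by time. The values are log2 expression signals as deposited by the authors; the log2 unit was read from their range of 2.095 to 15.049. How the authors normalized them is not given in the sources used here. Sorted by size, the values of any array lay within 0.118 of the average over 18 arrays, and they were used without further scaling. Of 45101 probe sets 64 were controls, 34945 had 1 gene symbol, 932 had several and 9160 had none. Each of 18193 genes was represented by its brightest probe set, by the mean of 18 arrays, and 9010 genes had more than 1.

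The package limma 3.58.1 (lmFit and eBayes, R 4.3.3) fitted slopes on log2(hours + 1), and Benjamini-Hochberg adjusted p-values under 0.05, taken over the whole table, were called. Residual degrees of freedom were 3 for 0 to 24 h, 2 for 0 to 12 h, 2 for the departure at 24 h (its value minus the 0 to 12 h line) and 8 for the slope difference over 12 arrays on log2(hours). The scripts were tested on simulated data. The 41 gene lists (1230 of 1332 symbols measured), the comparisons and the named genes were chosen with earlier results of these data known. The rule named the 15 largest rises and falls, at most 4 called genes per list (2 uncalled ones in lists with no call), 6 genes per sign in the other comparisons and 16 fixed genes. Clone names were left out. Alternatives were quantile normalization, centring, leaving out dim genes, an intensity trend, the mean of all probe sets, plain hours, a spread pooled over 17 arrays, matched times and leaving out each array. The number of arrays limits the precision.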

Additional observations from a re-analysis of the deposited data

Results flagged for a closer look

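In the 5 control arrays 50 measures were searched for an array whose gap to the next, over the whole range, passed Dixon's critical value of 0.71. There were 12. The chance rate of about 1 in 20 holds for independent values without a trend, and these arrays follow a time course with uneven steps. A flag at 24 h therefore cannot tell a deviating array from a change in time. At 0 h the 3' minus 5' difference of pyruvate carboxylase was 1.715 log2 (1.402 to 1.466 on the others), Malat1 was 11.522 (9.348 to 9.814) and the mean level of the fatty acid synthesis list was 9.382 (9.24 to 9.279).

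The other 9 were at 24 h. Mean levels were lowest there for plasma proteins, at 11.501 log2 (12.06 to 12.209 on the others), complement and coagulation, at 9.75, the urea cycle, at 7.99, amino acid catabolism, at 8.424, lymphocyte markers, at 4.814, and neutrophil and erythroid markers, at 4.887. They were highest there for the G1 genes, at 8.613 (8.066 to 8.184), integrins and matrix, at 7.586, and p53 genes, at 8.663.

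For 12 named genes the slope with IL-6 plus HGF differed from that in control by limma's interaction test, in log2 per doubling of hours. The difference was upward for Sult1e1 (1.46), Havcr1 (1.14), Ggct (1.0), Acsbg1 (0.99), Hmga2 (0.69) and Rab38 (0.53). It was downward for Adhfe1 (-1.07), Gsta3 (-1.03), Ugt2b36 (-0.97), Hsd17b2 (-0.96), Cldn1 (-0.92) and Csad (-0.91). None of the 12 passed when the control at 4 h was left out.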

How the results depend on the processing

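No named slope that was called over 0 to 24 h changed sign. Some uncalled ones did, such as that of Hamp without the 24 h array. Among all calls, 5 of 666 over 0 to 12 h had the opposite sign without the 0 h array, and with the mean of all probe sets so did 1 of these 666 and 1 of the 532 departures. Over 0 to 24 h the main counts were 390 rises and 267 falls. They were 320 and 416 with centred arrays, where falls outnumbered rises, 606 and 382 without dim genes, 1123 and 562 on plain hours, 1444 and 935 with the spread pooled over 17 arrays, and 220 and 141 with a fitted change of at least 1 log2. Leaving out 1 control array gave 14 to 391 rises and 9 to 275 falls over 0 to 24 h, lowest without 4 h. It gave 42 to 678 rises and 31 to 497 falls over 0 to 12 h, lowest without 8 h, and 57 to 494 genes above and 45 to 251 below the line at 24 h, again lowest without 8 h. The departure fits that leave out an array were chosen after seeing the data. Of the slope differences, 7 up and 11 down, there were 9 and 20 without dim genes, 20 and 26 on plain hours, 4 and 7 with the mean of all probe sets, 15 and 27 with an intensity trend, and 0 and 0 at matched times, where 674 had an unadjusted p under 0.05. Leaving out 1 array gave 0 to 17 up and 0 to 27 down. Of the 115 named genes called over 0 to 24 h, 115 were called with centring, 115 with quantile normalization, 109 without dim genes, 92 on plain hours, 113 with the pooled spread, 96 with the mean of all probe sets and 96 with an intensity trend. Without the 0, 4, 8, 12 or 24 h array 41, 12, 12, 42 and 105 were called. The cause of these shifts was not tested. In the fit over 0 to 24 h each array left out also removes 1 of 3 residual degrees of freedom. No paired analysis was possible because each time has 1 array, and replicate numbers only name the hours. Arrays compress differences near background, so folds of the dimmest genes may be understated.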
